A study of Homo sapiens with 28 samples.

Results

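The first step of adaptation to olaparib was described as the difference between 2 libraries of T5 and 2 libraries of C, 4 of the 28 samples that the labels list. T5 is a population of Kuramochi cells that had adapted to 5 uM olaparib, was kept at that dose, and was sorted for low CD24 and high CD44. C is the untreated population of the same line, sorted on the same 2 surface markers with no direction given. Both carry a mutant BRCA2. Chromatin accessibility was measured with Omni-ATAC sequencing, as deposited counts in 105048 consensus peaks (GRCh38, median width 1119 bp). The counts of 20 libraries were at hand, also from T10, T20, T40, T80, T160 and T320, adapted to 10, 20, 40, 80, 160 and 320 uM and sorted as T5 was, and from P10 and P320, which had not adapted, met 10 or 320 uM for 9 days, and have no sort named. The other 8 of the 28 samples were not analysed here. Since the T5 and C sorts may differ, sort and adaptation cannot be told apart. It is not stated that the replicates were separate cultures, so p-values measure the spread between these libraries only. In bulk cells, more cells with an open site and a site more open in each cell cannot be told apart.

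Kuramochi is a line of high-grade serous ovarian carcinoma. Olaparib inhibits PARP enzymes and traps them on DNA, which is toxic to cells that repair breaks poorly because BRCA2 fails. ATAC sequencing inserts adapters where DNA is free of nucleosomes, so peaks mark promoters and distal elements such as enhancers. Distal elements differ more between cell states than promoters do, and AP-1 and TEAD factors bind many of those used by mesenchymal cells. The number of reads in a peak also scales with the number of DNA copies, which were not measured here.

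The T5 libraries held 15526256 and 28547221 counts in peaks and the C libraries 11347046 and 22218981. All 10 markers of ovarian epithelial cells had a promoter peak, at 2.25 to 61.2 CPM (counts scaled to a common library size), and their sums were 174 and 179 CPM in T5 against 201 and 268 CPM in C. Of 6 blood markers only SPI1 had a promoter peak. Endothelial markers had 1 of 3, hepatocyte markers 1 of 2, fibroblast markers 1 of 3 and neural markers 2 of 2. SPI1 had 8.9 to 13.7 CPM, GFAP (neural) 15.7 to 19.7 CPM and PDGFRA (fibroblast) 15.3 to 20.2 CPM. RBFOX3 (neural), VWF (endothelial) and APOB (hepatocyte) had 3.89 to 7.05, 2.37 to 6.74 and 1.48 to 2.25 CPM. All but APOB lay within the range of the ovarian markers. None of these markers of other types was gained or lost.

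Promoter sequences are shown first for 4 genes whose promoter peak was gained in T5 (ZNF66, ZNF85, FN1 and SYT16) and 3 whose peak was lost (MUC16, CYP4B1 and IFI16), because the promoter calls described below include them and they differ in motif content. Each is the 250 bases before an annotated start in RefSeq (GRCh38.p14), 5′ to 3′ on the gene's strand. Capitals mark matches on either strand to the letters searched, which were TGANTCA for AP-1, GGAATG for TEAD, GGGANTTCC for NF-kB, GGGCGG for the GC box, CCAAT for the CCAAT box and TGACGTCA for the cyclic AMP response element. None of these letter patterns lies within another.
ZNF66 (chr19:20776054-20776303, plus strand): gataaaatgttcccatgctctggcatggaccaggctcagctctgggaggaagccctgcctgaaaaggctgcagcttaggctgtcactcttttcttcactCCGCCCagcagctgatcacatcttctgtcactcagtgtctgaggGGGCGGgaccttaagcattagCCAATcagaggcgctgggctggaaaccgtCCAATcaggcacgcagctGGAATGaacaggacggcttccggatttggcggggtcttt
ZNF85 (chr19:20923001-20923250, plus strand): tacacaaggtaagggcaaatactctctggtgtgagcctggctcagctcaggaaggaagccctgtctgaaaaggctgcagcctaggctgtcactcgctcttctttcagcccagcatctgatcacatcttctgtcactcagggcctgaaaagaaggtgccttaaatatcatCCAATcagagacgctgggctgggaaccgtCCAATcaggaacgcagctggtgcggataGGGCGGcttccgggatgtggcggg
FN1 (chr2:215436069-215436318, minus strand): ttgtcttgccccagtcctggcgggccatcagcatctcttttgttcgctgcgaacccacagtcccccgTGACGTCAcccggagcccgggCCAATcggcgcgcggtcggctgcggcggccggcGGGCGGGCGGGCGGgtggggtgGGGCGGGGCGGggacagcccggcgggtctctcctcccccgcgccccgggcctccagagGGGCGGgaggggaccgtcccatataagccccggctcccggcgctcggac
SYT16 (chr14:61927445-61927694, plus strand): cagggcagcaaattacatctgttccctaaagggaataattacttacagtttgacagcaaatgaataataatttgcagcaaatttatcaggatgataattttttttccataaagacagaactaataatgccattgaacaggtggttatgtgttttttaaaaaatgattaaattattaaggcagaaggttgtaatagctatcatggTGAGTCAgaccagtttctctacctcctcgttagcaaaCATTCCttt
MUC16 (chr19:9010410-9010659, minus strand): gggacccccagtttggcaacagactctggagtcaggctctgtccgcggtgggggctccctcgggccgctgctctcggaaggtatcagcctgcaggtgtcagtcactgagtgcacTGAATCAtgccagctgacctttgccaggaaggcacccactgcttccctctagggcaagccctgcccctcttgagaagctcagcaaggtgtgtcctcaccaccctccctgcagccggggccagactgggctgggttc
CYP4B1 (chr1:46798796-46799045, plus strand): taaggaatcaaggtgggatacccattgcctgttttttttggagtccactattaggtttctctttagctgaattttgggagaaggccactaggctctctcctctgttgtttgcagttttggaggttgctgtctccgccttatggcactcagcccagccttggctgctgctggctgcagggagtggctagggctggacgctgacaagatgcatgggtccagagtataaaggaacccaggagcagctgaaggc
IFI16 (chr1:159009657-159009906, plus strand): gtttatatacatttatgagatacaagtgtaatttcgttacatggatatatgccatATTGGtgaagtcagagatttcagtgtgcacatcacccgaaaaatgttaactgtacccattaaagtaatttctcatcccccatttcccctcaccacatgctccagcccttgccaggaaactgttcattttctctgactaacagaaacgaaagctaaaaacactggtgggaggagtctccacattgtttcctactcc

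ZNF66 and ZNF85 are neighbouring genes of the Kruppel-type zinc-finger family on chromosome 19. Their windows share a run of 24 identical letters, and reads from such related genes can be hard to assign. Each holds a pair of CCAAT matches and at least 1 GC box. The window of FN1 is 76.4% G and C and holds several GC boxes and a cyclic AMP element. The windows of SYT16 and MUC16, both at a start inside the gene, hold the AP-1 letters. The window of CYP4B1 holds no match to any of the 6 motifs, and that of IFI16 a single CCAAT match.

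Across the table, T5 and C differed at 9.19% of the peaks, about evenly in both directions. A peak was called gained or lost when edgeR's quasi-likelihood test gave an adjusted p under 0.05 over all 105048 peaks and the log2 fold change, T5 minus C, was at least 1 in size. By that rule 4969 peaks were gained, 4.73% of all, and 4683 were lost, 4.46% of all. On adjusted p alone 13700 passed, 13.0% of all. The median log2 fold change was 1.36 for gained and -1.51 for lost peaks. Among gained peaks 383 changed at least 4-fold and 10 at least 8-fold, against 869 and 79 among lost peaks.

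How many peaks passed rested on single libraries and on the scaling. Leaving out C replicate 2 gave 2168 gains and 2018 losses. Leaving out T5 replicate 1 gave 3738 and 2386, and leaving out T5 replicate 2, the deepest of the 4, gave 1604 and 1227. Gains were 51.5% of the calls. They were 45.1% when T5 and C were fitted alone and 47.8% with a trended offset, against 61.3% when scaled on total counts and 65.9% when scaled on promoter peaks, so no direction is drawn from the total numbers.

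Gains were more frequent the farther a peak lay from the start of a gene. A peak far from any start can still lie inside a gene. A promoter peak was one whose edge was within 1 kb of the start of a protein-coding gene, or of either end where the reference gave no strand. Of 15087 promoter peaks 155 were gained (1.03%) and 211 lost (1.4%). From 1 to 10 kb 3.53% were gained and 4.96% lost, and from 10 to 100 kb 4.67% were gained and 5.04% lost. Beyond 100 kb 2067 of 27647 peaks were gained (7.48%) and 1341 lost (4.85%). In this fit losses thus had nearly the same share in the 3 distal classes, and gains did not.

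That order of the gained shares held in each of 14 alternative fits, 1 of which (no filter) was the same as the main fit. In each of them gains outnumbered losses beyond 100 kb. With the replicate numbers as a block and an offset per 5 Mb window the margin was 2036 gained against 2010 lost. The even share of losses depended on the fit. With that block and offset the lost shares of the 3 distal classes rose with distance, at 5.91%, 6.66% and 7.27%. With the offset alone they were 4.13%, 4.32% and 4.71%. Without T5 replicate 2 the gained shares were 0.431% at promoters and 2.18% beyond 100 kb, with 602 gained and 310 lost there. Without C replicate 2 they were 0.742% and 3.01%, with 833 gained and 518 lost, and without T5 replicate 1 638 peaks were lost there. Promoter gains were 65 without T5 replicate 2, and promoter losses were 105 without T5 replicate 2, 128 without T5 replicate 1 and 108 without C replicate 2. Typical promoter peaks were the higher ones, with medians of 13.5 and 15.0 CPM in T5 and 13.1 and 16.6 CPM in C. Beyond 100 kb the medians were 4.38 and 4.69 CPM in T5 and 4.27 and 4.15 CPM in C.

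**Figure D1:**
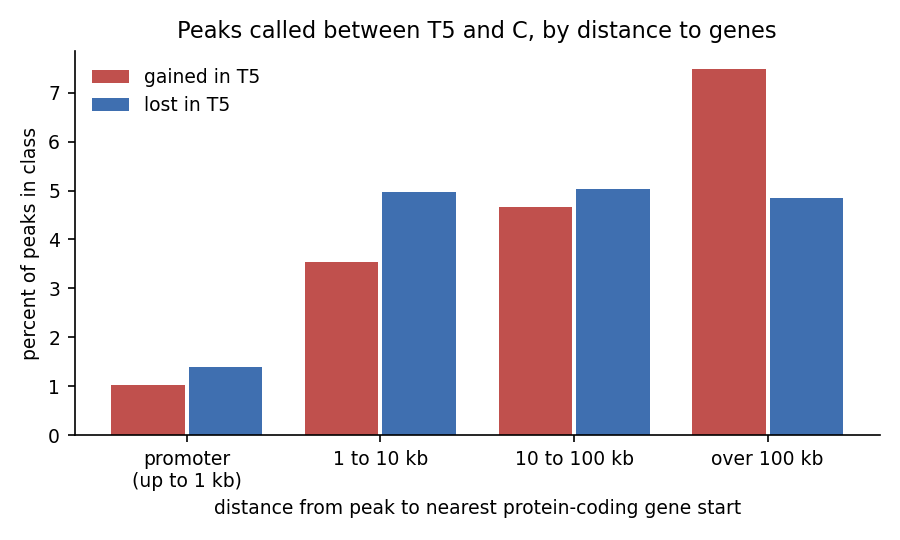
Percent of the peaks in each class of distance to the nearest protein-coding gene start that were gained (red) or lost (blue) in T5 against C. The gained share climbs from 1.03% at promoters to 7.48% beyond 100 kb, and the lost share stays between 4.85% and 5.04% in the 3 distal classes.

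Over all 89961 distal peaks 5.35% were gained and 4.97% lost, and the balance differed between peaks inside and outside genes. Of 44509 distal peaks between coding genes 5.77% were gained and 4.52% lost. Of 45452 that overlapped a coding gene 4.94% were gained and 5.41% lost.

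The 5 distal gains with the smallest p lay near ETS1, URI1, CYTH1, LAMB1 and CAV1. A peak 163760 bp from an end of ETS1, a transcription factor of invasive and endothelial cells (chromosome 11, 128293830 to 128295005), had 21.1 and 25.7 CPM in T5 against 3.45 and 1.98 CPM in C. Its log2 fold change was 3.16 ± 0.26 (SE; adjusted p = 1.2e-05). A peak 93580 bp from URI1, a prefoldin-like chaperone (chromosome 19, 30035819 to 30037187), had 26.2 and 31.8 CPM in T5 against 4.68 and 4.01 CPM in C, a change of 2.75 ± 0.23 (adjusted p = 1.2e-05). In both, the lower T5 library stood several-fold above the higher C library.

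The gained peak inside CYTH1, an exchange factor for ARF proteins, had 12.7 and 13.7 CPM in T5 and 2.46 and 2.64 CPM in C, a change of 2.37 ± 0.22. A peak inside LAMB1, which encodes a laminin chain of basement membranes, had 21.6 and 22.2 CPM in T5 and 5.09 and 6.18 CPM in C, a change of 1.95 ± 0.19. A peak 55585 bp from CAV1, which encodes the main protein of caveolae, had 37.3 and 33.7 CPM in T5 and 9.19 and 9.24 CPM in C, a change of 1.94 ± 0.20. LAMB1 and CAV1 lie on the long arm of chromosome 7, where most peaks were higher in T5. With the median of each 5 Mb window removed they had 1.33 and 1.32 and were still called.

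The 5 distal losses with the smallest p were of similar size. A peak inside KCNT2, a sodium-activated potassium channel (chromosome 1, 196515719 to 196517242), had 2.37 and 2.75 CPM in T5 against 18.5 and 20.6 CPM in C, a change of -2.92 ± 0.25 (adjusted p = 1.6e-05). A peak 197248 bp from DMRTA2, a transcription factor of brain and gonad, overlapped a coding gene. It had 5.27 and 4.07 CPM in T5 and 26.3 and 32.9 CPM in C, a change of -2.68 ± 0.24. In both, every C library stood several-fold above every T5 library.

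A peak 269818 bp from RRAGC, a GTPase that activates mTORC1, had 6.81 and 7.75 CPM in T5 and 29.4 and 46.8 CPM in C (-2.39 ± 0.21). Peaks inside RUNX1T1, a transcriptional corepressor, and RNF130, a ubiquitin ligase, changed by -2.33 ± 0.22 and -1.79 ± 0.19. All 10 of these distal peaks were called in each alternative fit. They were chosen for the smallest p in the same counts, so that was likely beforehand and does not speak for other peaks. Distance to the nearest gene does not show which gene an element serves.

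The changes of at least 8-fold were nearly all distal. None of the 10 gains and 1 of the 79 losses was at a promoter, and 8 of the gains lay beyond 100 kb. Of all 105048 peaks, 89961 were distal and 27647 lay beyond 100 kb. Apart from the peak near ETS1, these gains were under 1 CPM in both C libraries and at most 5.74 CPM in T5, so their fold changes rest on low counts. After their values were seen, 3 distal losses that were high in C were picked out. The peak 15351 bp from PDGFA, a growth factor for mesenchymal cells, had 1.72 and 0.939 CPM in T5 and 19.5 and 18.8 CPM in C, a change of -3.90 ± 0.50 (adjusted p = 0.00018). The peak near NUDT16, a hydrolase of inosine nucleotides, had 2.49 and 1.18 CPM in T5 and 21.3 and 24.7 CPM in C. The peak near BCL9, a Wnt coactivator, had 1.54 and 0.695 CPM in T5 and 10.3 and 17.6 CPM in C. Both changed by -3.70.

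Chromosomes differed in the balance of gains and losses. On chromosome 7, 652 peaks were gained (10.7%) and 266 lost. On chromosome 9, 139 were gained and 528 lost (11.3%), and on chromosome 1, 222 were gained and 865 lost (7.74%). Chromosome 20 had 198 gains and 53 losses, chromosome 17 232 and 105, and chromosome 3 486 and 232. Chromosome 19 had the smallest share of calls in both directions together, with 50 gains and 79 losses among 3273 peaks. The median log2 fold change over all peaks was 0.19 on chromosome 7, 0.21 on chromosome 17, -0.24 on chromosome 9 and -0.31 on chromosome 1.

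The chromosome counts fell without single libraries as the totals did. Chromosome 7 gains were 371 without C replicate 2 and 290 without T5 replicate 2. Chromosome 9 losses were 220 without T5 replicate 2, 284 without T5 replicate 1 and 265 without C replicate 2. Chromosome 1 losses were 257, 481 and 436 without those 3 libraries.

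Part of this imbalance lay in long stretches where most peaks had changes of the same sign. In 573 windows of 5 Mb with at least 20 peaks, the median log2 fold change had a typical size of 0.118. The 3 lowest windows were neighbours on chromosome 9, from 25 to 40 Mb, with medians of -0.963, -0.966 and -0.912. The 3 highest were 85 to 90 Mb and 90 to 95 Mb on chromosome 7, with 0.706 and 0.68, and 65 to 70 Mb on chromosome 6, with 0.665.

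**Figure D2:**
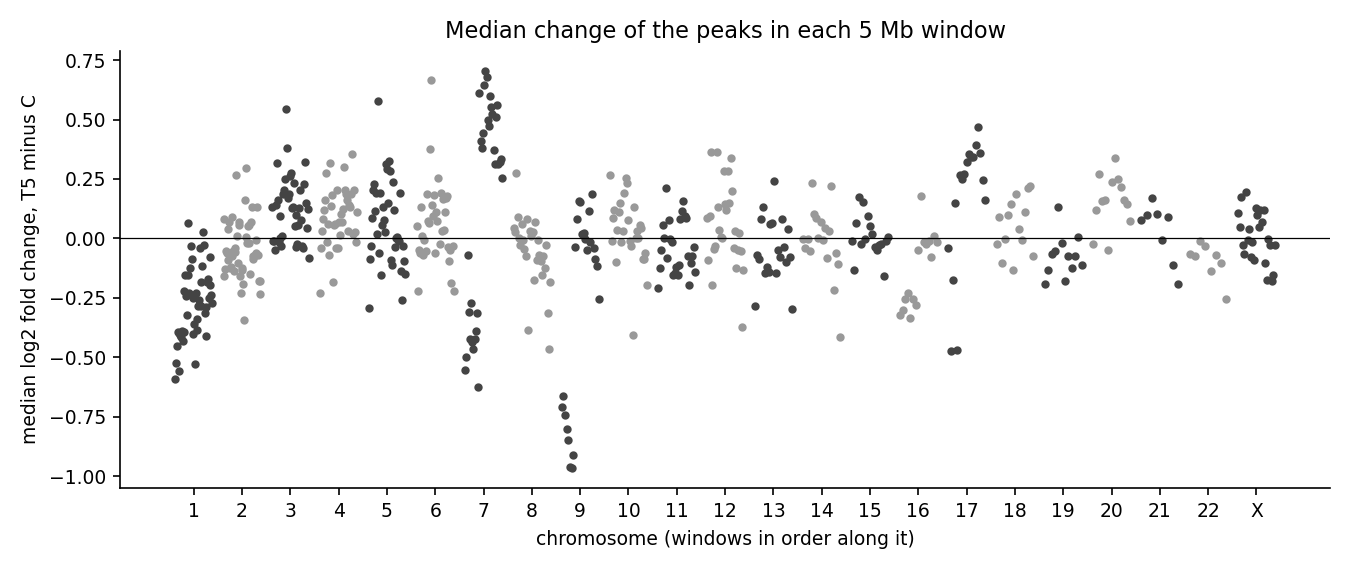
Median log2 fold change, T5 minus C, of the peaks in each 5 Mb window with at least 20 peaks, with the windows in order along each chromosome. Chromosome 9 starts with windows down to -0.966, chromosome 7 passes from lower windows to windows up to 0.706, and most windows of chromosome 1 lie below 0.

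Runs of at least 3 neighbouring windows whose medians were past 0.4 in size were then joined, a limit set after the values were seen. They gave 5 stretches. From 0 to 40 Mb on chromosome 9, 6 of 1570 peaks were gained and 399 lost, and 90.5% of the peaks had a change below 0. The median was -0.874 over the 172 promoter peaks and -0.807 over the 1398 distal peaks of that stretch. From 75 to 120 Mb on chromosome 7, 364 of 1854 peaks were gained and 15 lost, and 83.5% had a change above 0, with medians of 0.41 at promoters and 0.592 at distal peaks.

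The other 3 stretches were lower in T5. Medians were -0.519 from 0 to 15 Mb and -0.456 from 25 to 40 Mb on chromosome 1, and -0.438 from 30 to 45 Mb on chromosome 7. The 5 stretches held 5.83% of the peaks, 8.03% of the gains and 15.1% of the losses. Outside them 4570 peaks were gained (4.62%) and 3974 lost (4.02%), and 138 promoter peaks were gained and 145 lost.

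The share of a library's counts that fell in these stretches differed less between replicates than between T5 and C. The chromosome 9 stretch took 1.08% and 1.13% of the counts in T5 against 1.83% and 1.85% in C. The chromosome 7 stretch from 75 Mb took 2.14% and 2.17% in T5 against 1.46% and 1.45% in C. The first 15 Mb of chromosome 1 took 1.07% and 1.04% in T5 against 1.5% and 1.38% in C. The stretches were chosen by the difference between T5 and C, so these shares describe its size and do not test it.

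The shares of the chromosome 9 and chromosome 7 stretches in T10 were near those of T5, at 1.09% and 1.12% and at 2.20% and 2.23%. In P10 they were nearer to C, at 1.69% and 1.67% for chromosome 9 and 1.37% and 1.36% for chromosome 7. In T320 the chromosome 9 share was 1.37% and 1.40% and the chromosome 7 share 1.62% and 1.57%, between T5 and C. The share of the first 15 Mb of chromosome 1 went the other way. It was 0.958% and 0.892% in T10 and 0.865% and 0.795% in T320, farther below C than in T5. In P10 that share was 1.58% and 1.59%. Whether such a stretch had fewer or more DNA copies, or less or more open chromatin per copy, cannot be told apart from these counts.

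**Figure D3:**
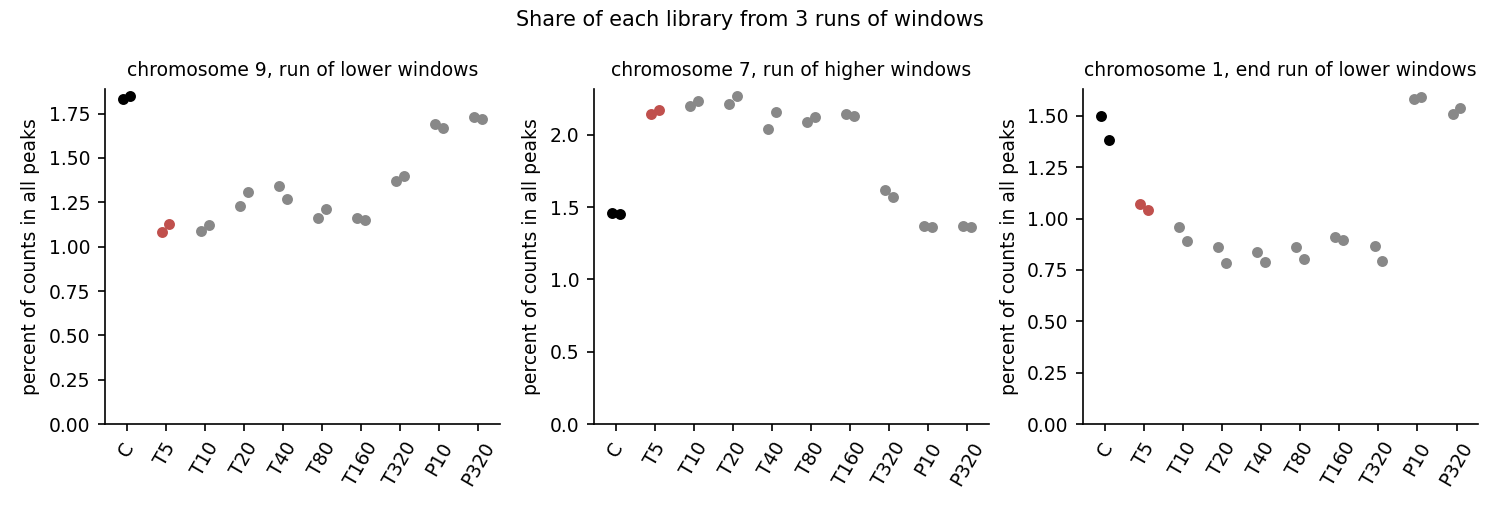
Percent of the counts in all peaks that fell in 3 stretches, for each library (points) of C, of the adapted populations in order of dose and of P10 and P320. T5 (red) lies at 1.08% and 1.13% against 1.83% and 1.85% in C (black) on chromosome 9, and at 2.14% and 2.17% against 1.46% and 1.45% on chromosome 7.

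Next, the median shift of each 5 Mb window with at least 20 peaks was taken out of the counts (the window offset). It served as a stand-in for copy number. With it 4082 peaks were gained and 4088 lost, of which 3493 and 3428 were the same calls as before. Chromosome 7 then had 254 gains and 246 losses, chromosome 9 180 and 181, and chromosome 1 408 and 445. Removing each window's median brings the calls of a chromosome near balance by construction. Promoter calls became 127 gains and 121 losses. Beyond 100 kb 1612 peaks were gained and 1302 lost.

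At promoters the calls fell on few genes. With the highest promoter peak of each gene, 93 of 14801 genes were gained (0.628%) and 169 lost (1.14%). The promoter peaks with the largest gains included the zinc-finger genes ZNF66 and ZNF85. The peak at the only annotated start of ZNF66 (chromosome 19, 20776046 to 20777189) had 6.22 and 6.54 CPM in T5 and 1.89 and 1.08 CPM in C. The change was 2.16 ± 0.30 (adjusted p = 0.0003). The peak at ZNF85 (20922716 to 20924017) had 5.63 and 8.35 CPM in T5 and 1.07 and 2.17 CPM in C, a change of 2.05 ± 0.34 (adjusted p = 0.001). These largest changes were taken only from peaks whose T5 and C libraries did not overlap, so that separation was set by the choice.

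Among the largest gains at other starts was a peak 770 bp from the start of ABCA9, a lipid transporter of the ABC family. That peak had 9.18 and 7.75 CPM in T5 and 2.46 and 1.46 CPM in C, a change of 2.14 ± 0.36. Another peak covers the start itself, and its change is not given here. The peak at an inner start of SERTAD4 had 12.6 and 14.4 CPM in T5 and 4.02 and 2.83 CPM in C, a change of 2.01 ± 0.31. SERTAD4 encodes a protein with a SERTA domain.

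The remaining large gains were all at inner starts. Other peaks cover further starts of LIPA, ANK2 and ZBTB20, and their changes are not given here. LIPA, the lysosomal acid lipase, changed by 2.32 ± 0.49, with 1.95 and 2.43 CPM in T5 and 0.246 and 0.566 CPM in C. ANK2, an ankyrin that anchors membrane proteins, changed by 1.98 ± 0.39, ZBTB20, a transcriptional repressor, by 1.96 ± 0.34 and SYT16, an atypical synaptotagmin, by 1.94 ± 0.29. LIPA was not called without T5 replicate 2, and the other 7 of the 8 largest gains were called in each alternative.

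The 8 largest promoter losses included CYP4B1 and HRNR. CYP4B1, a cytochrome P450 of fatty acid and xenobiotic oxidation (chromosome 1, 46798675 to 46799920), had 2.84 and 2.54 CPM in T5 and 17.4 and 19.0 CPM in C. The change was -2.76 ± 0.50 (adjusted p = 0.002). HRNR, a protein of the cornified skin envelope, had 1.13 and 0.80 CPM in T5 and 6.73 and 6.60 CPM in C, a change of -2.81 ± 0.46. Levels in T5 were several-fold below those in C at both.

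MTARC2, a mitochondrial reductase, had 0.474 and 0.348 CPM in T5 and 3.61 and 3.30 CPM in C, a change of -3.08 ± 0.76. AQP9, a channel for water and glycerol, had 0.592 and 0.73 CPM in T5 and 4.76 and 5.33 CPM in C, a change of -2.91 ± 0.68. Both were at very low levels in T5, and neither was called without C replicate 2 or without either T5 library.

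The other 4 of the 8 largest losses were GNA14, a G protein subunit, at -2.66 ± 0.75, ECHDC2, a mitochondrial hydratase, at -2.57 ± 0.62, MINDY4, a deubiquitinase of the MINDY family, at -2.49 ± 0.36, and GPR146, an orphan receptor, at -2.40 ± 0.53. MINDY4 was called in each alternative. Its peak lay 570 bp from the only annotated start, and the GPR146 peak 691 bp from an inner start. Other peaks cover the MINDY4 start and the outer GPR146 start, and their changes are not given here. GNA14 was not called when scaled on promoter peaks or without any 1 of the 4 libraries, ECHDC2 without C replicate 2 or T5 replicate 2, and GPR146 without T5 replicate 2.

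**Figure D4:**
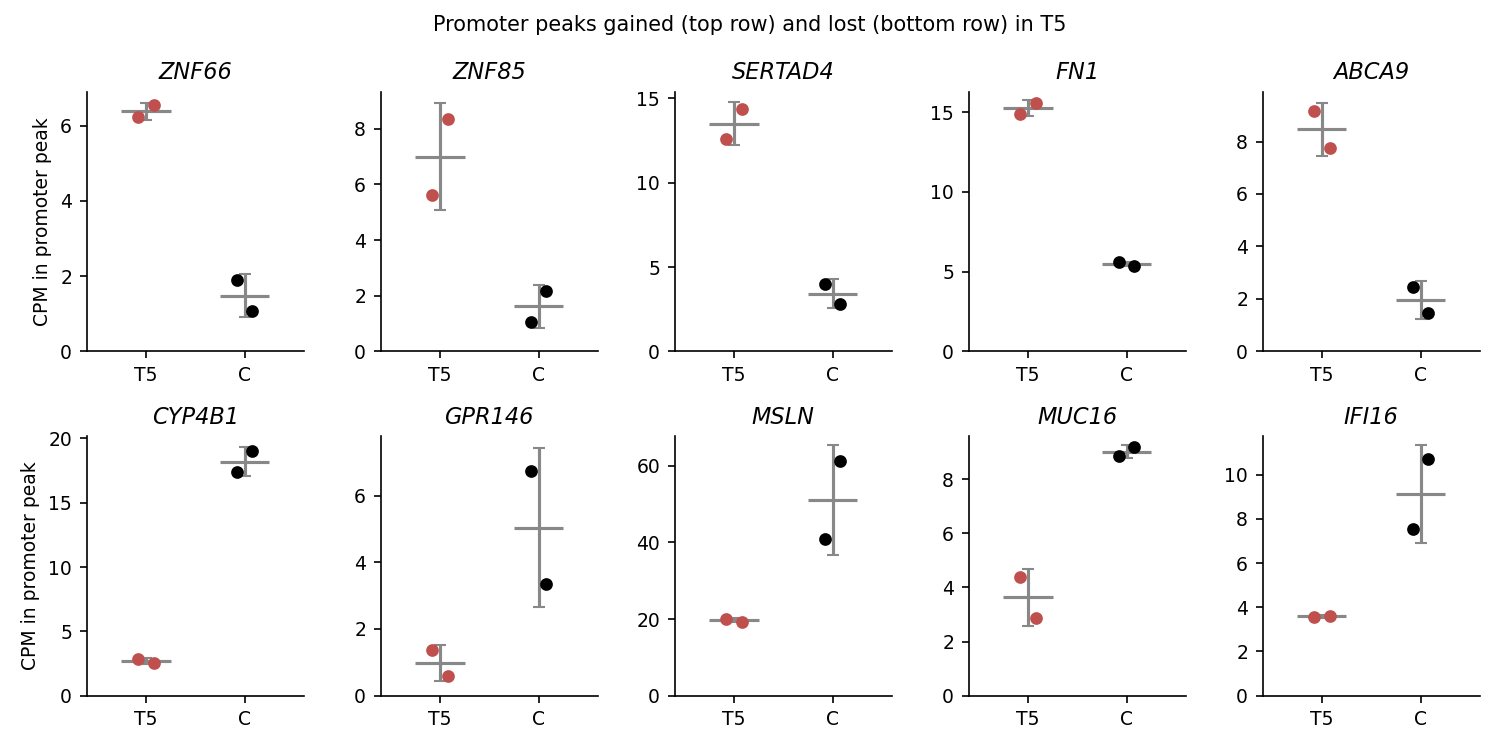
CPM in 10 promoter peaks for each T5 (red) and C (black) library, with the mean (line) and SD (bar, n = 2 each). The 5 gained peaks stand in the top row and the 5 lost peaks in the bottom row. The peaks were chosen for these changes, with levels in T5 from under 2 CPM at GPR146 to 20.1 and 19.3 CPM at MSLN.

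Lineage genes of the Mullerian duct and serous ovarian cells had 2 promoter losses and 0 gains among 16 measured members. The median change was -0.18 against -0.10 over all 14801 genes. Of all these genes 0.628% were gained and 1.14% lost, the shares to set beside each list below. MSLN, the tumour antigen mesothelin, had 20.1 and 19.3 CPM in T5 and 41.0 and 61.2 CPM in C, a change of -1.38 ± 0.24 (adjusted p = 0.0013). The reference gives no strand for MSLN, so this peak lies at an end of the gene that may not be its start. MUC16, which encodes the antigen CA125, had 4.38 and 2.89 CPM in T5 and 8.86 and 9.19 CPM in C at an inner start, a change of -1.33 ± 0.34 (adjusted p = 0.014). Both were lower in each T5 library than in each C library. MUC16 was not called when scaled on promoter peaks or without C replicate 2 or T5 replicate 2. On adjusted p alone 5 members were lower and 1 higher, where 5.43% of all genes passed in either direction. WT1, a factor that marks serous carcinoma, had -0.63 ± 0.19 and SOX17, a Mullerian factor, -0.71 ± 0.21, both short of the fold minimum.

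Epithelial identity genes had 0 calls among 20, with a median change of -0.41 against -0.1 over all genes. With the window offset these medians were -0.27 and -0.07. On adjusted p alone 2 were higher and 3 lower. The closest to a call was CD24, a surface marker used in the sort, with 6.87 and 5.98 CPM in T5 and 10.4 and 15.0 CPM in C. Its change of -0.999 ± 0.21 lay just short of the minimum (adjusted p = 0.0047), and it was called as lost in 8 of the alternatives that kept that minimum, the window offset and DESeq2 among them. CD44, the other sorted marker, had 12.9 and 13.8 CPM in T5 and 14.6 and 13.8 CPM in C, a change of -0.09 ± 0.23. Only 3 of the 20 members were above 0. Among them were ELF3, an epithelial transcription factor, and CLDN4, a claudin of tight junctions, at 0.55 and 0.80.

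Mesenchymal and matrix genes had 1 gain and 0 losses among 24, with a median of 0.08. FN1, which encodes fibronectin (chromosome 2, 215435444 to 215437256), had 14.9 and 15.6 CPM in T5 and 5.58 and 5.37 CPM in C, a change of 1.48 ± 0.20 (adjusted p = 0.0003). Replicates were close and the groups far apart, and FN1 had 1.49 with the window offset, still called.

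Interferon response genes had 1 gain and 1 loss among 29, where 0.628% of all genes were gained and 1.14% lost. IFI16, a sensor of DNA in the nucleus, had 3.55 and 3.62 CPM in T5 and 7.55 and 10.7 CPM in C, a change of -1.35 ± 0.27 (adjusted p = 0.0034). OAS1, which senses double-stranded RNA, had 6.52 and 7.55 CPM in T5 and 3.53 and 3.39 CPM in C, a change of 1.03 ± 0.31 (adjusted p = 0.035). OAS1 was not called without any 1 of the 4 libraries, with the trended offset or with the window offset. IFI16 was not called without C replicate 2 or T5 replicate 2, and neither gene was called with the replicate block and window offset together.

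Longer lists of genes of other cell types gave 3 calls in all, where 0.628% of all genes were gained and 1.14% lost. EMCN, an endothelial sialomucin, was gained at 1.36 ± 0.32 and was the 1 call among 7 endothelial genes, while VWF had 2.37 and 2.57 CPM in T5 and 5.33 and 6.74 CPM in C. MAP2, a neuronal microtubule protein, was gained at 1.18 ± 0.30, 1 of 9 neural genes. APOA1, an apolipoprotein of liver and gut, was lost at -1.45 ± 0.37, 1 of 3 hepatocyte genes, at an end of the gene that may not be its start. None of the 3 was called without T5 replicate 2. MAP2 and APOA1 were also not called without C replicate 2 or T5 replicate 1, APOA1 when scaled on promoter peaks, and EMCN without C replicate 1. Blood cell and fibroblast lists had 0 calls among 6 and 7 genes. Whether cells of other types contributed was not tested.

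No other list had a call in either direction by edgeR at the fold minimum. Since only 0.628% of all genes were gained and 1.14% lost, no conclusion is drawn from 0 calls in lists this short. These lists covered signalling to the nucleus (AP-1 and immediate early genes, 19 measured, NF-kB and cytokines, 17, YAP and TEAD targets, 17, Wnt, Notch and stem cell genes, 19), genome upkeep (homologous recombination and PARP, 35, p53 targets, 17, cell cycle, 32, chromatin modifiers, 28), stress and metabolism (NRF2 and detoxification, 16, glycolysis and hypoxia, 18, sterol and fatty acid synthesis, 21, the unfolded protein and integrated stress responses, 20, ABC transporters, 11), antigen presentation (15) and constitutive promoters (14). On adjusted p alone, homologous recombination and PARP genes had 1 higher and 1 lower member, and AP-1, p53 and YAP genes had 0 in either direction.

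Genes tied to the action of the drug were followed in any case. PARP1, the target of olaparib, had 19.7 and 21.7 CPM in T5 and 20.9 and 27.6 CPM in C, a change of -0.23 ± 0.22. BRCA2 had 29.4 and 31.1 CPM in T5 and 29.5 and 39.8 CPM in C, a change of -0.20 ± 0.22. Neither difference exceeded the spread between replicates.

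ABCB1, the efflux pump that exports olaparib, had 6.69 and 4.90 CPM in T5 and 4.35 and 2.88 CPM in C at an inner start. Its change of 0.70 ± 0.25 was not called (adjusted p = 0.073) and was -0.08 with the window offset. The gene lies in the chromosome 7 stretch. SLFN11, a helicase that stalls stressed replication forks, had 0.55 ± 0.41, with overlapping libraries. CDKN2A, a cell cycle inhibitor in the chromosome 9 stretch, had 26.2 and 28.0 CPM in T5 and 43.0 and 64.7 CPM in C, a change of -0.99 ± 0.35 (adjusted p = 0.068). With the window offset it was -0.12, and it was called as lost with the replicate block and without C replicate 1. The promoter peak of CXCL1, a neutrophil chemokine, had 13.3 and 15.3 CPM in T5 and 8.78 and 7.17 CPM in C, a change of 0.85 ± 0.21 (adjusted p = 0.012), under the fold minimum.

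Motif letters at the promoters differed between gained and lost sets, given here as a description with no test. The AP-1 letters were in 14.5% of the 124 upstream windows at gained promoter peaks and in 3.65% of the 192 at lost ones, against 4.23% of 16059 windows at all promoter peaks and 5.37% of all 22078 coding starts. The GC box was in 21.0% of windows at gained and 51.6% at lost peaks, against 65.3% at all promoter peaks. TEAD letters were in 15.3% and 9.38%, against 9.61%. CCAAT was in 34.7% of windows at gained and 26% at lost peaks, against 32.5%. NF-kB letters and the cyclic AMP element were each in 1 window at gained and 1 at lost peaks. A match is not a bound site.

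Some genes had many called peaks around them. Of 17118 genes with a peak nearest to them within 100 kb, 30 had at least 5 gained and 28 at least 5 lost peaks, where 3.75% of all such peaks were gained and 4.32% lost. The most gains were near CALD1, which encodes caldesmon, an actin-binding protein of smooth muscle and fibroblasts, with 14 gained of 28 peaks. NRCAM, a neuronal adhesion protein, had 10 of 32. DYNC1I1, a dynein subunit, FZD1, a Wnt receptor, and SEMA3A, a secreted guidance cue, had 8 each, and 1 peak near FZD1 was lost. All 5 genes lie on chromosome 7, and with the window offset the gains were 6 for CALD1, 0 for NRCAM, 1 for DYNC1I1, 2 for FZD1 and 3 for SEMA3A. With that offset 2 peaks near NRCAM, 2 near SEMA3A and 1 near FZD1 were lost.

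JAG1 and LPP were the genes with 8 gains that lie elsewhere. LPP, which encodes a protein of focal adhesions (chromosome 3), had 8 gained of 36 peaks, and 8 with the window offset. Its largest gain, inside the gene at 188507220 to 188507679, had 4.03 and 3.55 CPM in T5 and 0.821 and 0.424 CPM in C, a change of 2.65 ± 0.46. JAG1, a ligand of Notch receptors (chromosome 20), had 8 gained of 20 peaks, and 6 with the window offset. The highest CALD1 change was 2.38 ± 0.38, at an intragenic peak with 9.95 and 14.0 CPM in T5 and 2.87 and 1.89 CPM in C.

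The most losses were near genes of the chromosome 9 and chromosome 1 stretches. GLIS3, a transcription factor of pancreas and kidney, had 10 lost of 38 peaks, BNC2, a zinc-finger factor expressed in ovary, 8 of 17, and NFIB, a nuclear factor I protein, 8 of 40. GRHPR, a glyoxylate reductase, had 7 of 11, and LOC105375947 had 7 of 12. With the window offset 1, 2, 1, 1 and 0 peaks of these genes were lost. On chromosome 1 the genes AJAP1, CASZ1, GPR157, RERE, SPSB1 and WASF2 had 7 lost peaks each, and 4, 3, 3, 4, 2 and 3 with the window offset, with which 1 peak near CASZ1 was gained.

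One NFIB peak went beyond its surroundings. At 14365809 to 14366426 on chromosome 9 it had 0.592 and 0.313 CPM in T5 and 3.94 and 6.79 CPM in C, a change of -3.62 ± 0.68, and -2.95 with the window offset. It was chosen after its values were seen.

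The next step, from T5 to T10, called fewer peaks. T10 against T5 had 2264 gains (2.16%) and 1259 losses (1.2%). Gains were 1336 without T5 replicate 1, 323 without T5 replicate 2 and 561 without T10 replicate 2. Losses were 674, 89 and 145 without the same libraries and 713 without T10 replicate 1. Gains were the minority when scaled on promoter peaks, with 1298 gained and 2329 lost.

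None of the 42 named peaks was called between T10 and T5. On adjusted p alone ZNF66 was higher in T10, by 0.91 (adjusted p = 0.037), and the peak near CAV1 lower, by 0.71 (adjusted p = 0.034). ZNF66 averaged 12.0 CPM in T10 and 14.3 CPM in T320. The peak near ETS1 averaged 16.1 CPM in T10 and 4.04 CPM in T320, near the 2.71 CPM of C.

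Over all the peaks called between T5 and C, medians in the later doses were near those of T5. Gained peaks had a median of 2.74 CPM in C, 7.14 in T5, 6.62 in T10 and 6.17 in T320, and of 2.85 in P10 and 2.13 in P320. Lost peaks had a median of 8.71 CPM in C, 2.89 in T5, 2.80 in T10 and 2.88 in T320, and of 5.20 in P10 and 6.27 in P320. The peaks were chosen on T5 and C, so the values of these 2 populations are no evidence, and the comparisons share libraries.

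**Figure D5:**
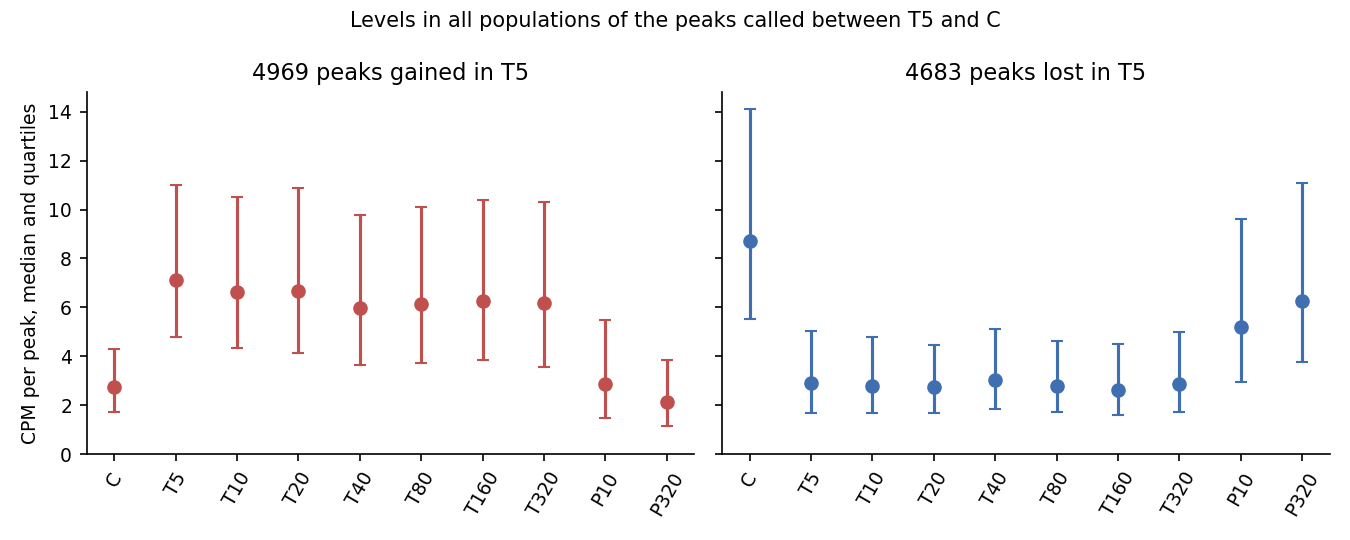
Median CPM per peak (point) with the lower and upper quartile (bars) in each population, for the 4969 peaks gained and the 4683 peaks lost in T5 against C. Medians of gained peaks are 7.14 in T5 and 6.17 in T320 against 2.74 in C, and P10 lies at 2.85, near C.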

How the data were processed

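The authors deposited 1 table of raw read counts per consensus peak for 20 libraries. The submitters' processing notes name, without roles, Bowtie2 and MACS2 beside Trim Galore, SAMtools, Picard, deepTools, HOMER and DESeq2, and build GRCh38. Duplicate handling is not given in the sources used here. Totals ran from 9627970 to 29699950 counts a library, and no 2 replicates agreed within counting noise.

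From these counts, edgeR 4.0.16 (R 4.3.3) fitted 1 quasi-likelihood model with robust spread over all 10 populations (residual df 10), with TMM scaling and filterByExpr, which removed 0 peaks. P-values were adjusted by Benjamini-Hochberg over 105048 peaks. SE is the fold change over the root of F. CPM used TMM library sizes. The script was tested on simulated counts with independent libraries and no shifts of whole stretches, so that test does not bear on either. Gene starts came from RefSeq for 15812 of 19974 coding genes, and both ends served for the rest, which touches 3092 of the promoter peaks.

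Named peaks were the 8 largest promoter gains and losses whose higher group averaged 2 CPM or more and whose libraries did not overlap, up to 2 called members a list, 8 genes of prior interest, the 5 distal gains and losses with the smallest p, the 5 genes with most gained or lost peaks (ties kept), and the 3 highest and lowest windows. The members and lists were chosen with earlier results of these data known. In the mesenchymal and matrix list 1 gene is not reported here and was left out of the list's counts and median. Alternatives were another scaling, a trended and a window offset, DESeq2 1.42.0, a strict filter (2 CPM in 2 libraries), no filter, no fold minimum, promoters within 2.5 kb, the 2 populations alone, a replicate block, and leaving out each library, where a lone library was assumed to vary like the other populations.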

Additional observations from a re-analysis of the deposited data

How the results depend on the processing

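Of the 34 named peaks that were called, 22 kept their call and direction in all 15 alternatives and 0 reversed. The 34 were chosen for a large change, a small p or a call in these same counts, so they do not stand for all calls. With no filter every count was the same as before, and dropping the fold minimum cannot remove a call, so neither could lower the 22. Counts outside the 5 stretches were an alternative chosen after seeing the data. Scaled on promoter peaks (TMM), losses in T5 were 2763, with 120 at promoters, 344 on chromosome 9 and 505 on chromosome 1, and T10 against T5 had 1298 gains and 2329 losses. With the window offset there were 121 promoter losses, 254 chromosome 7 gains, 181 chromosome 9 losses, 445 chromosome 1 losses, and 1299 gains in T10 against T5. With no fold minimum there were 341 promoter gains, 605 promoter losses, 989 chromosome 7 gains and 1343 chromosome 1 losses. Promoters within 2.5 kb had 317 losses. Outside the 5 stretches chromosome 7 had 277 gains and chromosome 9 129 losses. Losses in T10 against T5 were 2002 with DESeq2 and 2035 with the 2 populations alone. The cause of these shifts was not tested, beyond what the window offset and the fold minimum do by construction.

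The labels do not say that a replicate number marks a shared batch, and each population has 2 numbers, so they were not taken to pair the libraries. Deviations of same-numbered libraries correlated at 0.397 between T5 and C, and from 0.174 to 0.587 among C and the adapted populations, where replicate 1 was always the shallower library. With the replicate block 6087 peaks were gained and 7149 lost in T5 (46% gained), and 2589 were lost in T10 against T5. With the block and the window offset 44.7% of the calls in T5 were gains, and there were 319 chromosome 7 gains, 266 chromosome 9 losses and 1891 losses in T10 against T5.

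Leaving out 1 library at a time gave 1604 to 5911 gains and 1227 to 4378 losses in T5, 65 to 176 promoter gains, 105 to 293 promoter losses, 290 to 703 chromosome 7 gains, 220 to 492 chromosome 9 losses, 257 to 780 chromosome 1 losses, and 323 to 1912 gains and 89 to 713 losses in T10 against T5. With 2 libraries a population, depths that differ more within T5 and C than between them, and no measure of DNA content, peaks of few counts and stretches of one sign are the least certain values here.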

Other observations

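Some changed peaks stood side by side outside the 5 stretches of shifted windows. On chromosome 6, 7 neighbouring peaks from 81981511 to 82041232, a span of 59.7 kb whose nearest genes are TENT5A, a poly(A) polymerase, and IBTK, an inhibitor of Bruton's kinase, were all gained. Their log2 fold changes, T5 minus C, ran from 1.32 to 2.23 with a median of 1.91, and 6 were still called with the window offset. On chromosome 19, 5 neighbouring peaks from 28939174 to 28980517 were gained with a median of 1.52, and 4 were called with the window offset. The gene nearest to them is UQCRFS1, a subunit of respiratory complex III. On chromosome 9, outside the stretch of losses, 5 neighbouring peaks between TLR4, a receptor of innate immunity, and BRINP1 were gained with a median of 1.37, and 2 were called with the window offset. The 12 runs of at least 5 neighbouring peaks called in 1 direction were sought after the values were seen, and 9 of them lie in the chromosome 7 and chromosome 9 stretches.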
